A study of Mus musculus with 12 samples.

Results

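Actb and Actg1 encode the cytoplasmic β- and γ-actins, and 8 genes encode proteins that hold, cut, nucleate or coat actin: the thymosins Tmsb4x and Tmsb10, the profilin Pfn1, the cofilin Cfl1, the Arp2/3 subunit Arpc1b, the coronin Coro1a and the tropomyosins Tpm1 and Tpm4. They were taken by name from a table of 28689 genes, and the 10 genes were found there. All 10 were among the 12467 genes that were tested, for which 6 or more of the 12 libraries had to reach 1 FPKM. The lowest value of any of them was 1.39 FPKM, so each of the 10 met this limit in all 12 libraries. FPKM relate the fragments of a gene to its length and to the total of the library. Their sum over all genes still differed between libraries, from 287669.8 to 317653.2, so comparisons between libraries depend on the scaling, which was varied.

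Actin cycles between single molecules and filaments. Thymosins hold the single molecules in reserve, profilin hands them to growing filament ends, cofilin cuts and strips old filaments, the Arp2/3 complex starts side branches, coronins act on branches and on cofilin, and tropomyosins lie along filaments and set which proteins reach them. In endothelial cells this cycle shapes the cortex, the junctions and the stress fibres under flow. Because actin is needed in every cell, Actb is often used as an internal standard against which other transcripts are scaled, and that use requires a level that does not move with the condition under study.

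RNA of mouse lung endothelial cells (MLECs) was sequenced in 6 libraries of CTR and 6 libraries of dKO mice. The dKO mice carried VE-CAD-CreERT2, a tamoxifen-activated Cre recombinase under the VE-cadherin promoter, with both alleles of Sp1 and of Sp3 floxed (Sp1 fl/fl, Sp3 fl/fl). The CTR mice were littermates with the same floxed alleles and no Cre, called WT in the sample labels, and both groups received tamoxifen. Columns of the dKO group are named after tamoxifen although both groups were treated, and they were matched to the group through the sample labels. The mice were adult males. The cells were selected with beads against CD31 and later against intercellular adhesion molecule 2, and were used at passages 1 to 3. The number of mice behind a library is not given, so p-values measure only the spread between these libraries, which may be technical. Sp1 was 21.2 ± 1.77 FPKM (SD, n = 6) in CTR and 10.6 ± 1.53 in dKO libraries, and all 6 dKO values lay below all CTR values. Sp3 was 27.7 ± 2.31 and 25.0 ± 1.64 FPKM with overlapping groups, and 0 of the 6 dKO values lay above the CTR median. Its limma adjusted p was 0.0902, and an exact permutation test of log2 FPKM gave an unadjusted p of 0.0455. The fall in FPKM was thus clear for Sp1 and small for Sp3. By immunofluorescence, the paper reports less of both proteins in the aortic endothelium of dKO mice, a different measure and tissue. Its supplement also shows a western blot of both proteins in isolated endothelial cells of CTR and dKO mice. The legend of that blot names aortic cells.

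The libraries held 15523054 to 17938286 fragments. The 10 genes together took 0.65 to 1.05% of the fragments of a CTR library and 0.90 to 1.34% of those of a dKO library. Endothelial markers were present, with a summed level of 188 to 309 FPKM over 10 genes in CTR and 358 to 483 FPKM in dKO libraries. Markers of other cells were abundant as well. The fibroblast list of 8 genes summed to 2130 to 2710 FPKM in CTR and 829 to 1660 FPKM in dKO libraries, and the macrophage list of 12 genes to 723 to 1270 FPKM and 2400 to 5330 FPKM. All 10 endothelial and all 12 macrophage markers rose, beside 20.4% of all tested genes. Of 7 tested fibroblast genes, the collagens Col1a1, Col1a2 and Col3a1 fell and Dcn rose. The other 3, Pdgfra, Dpt and Tcf21, did not pass the test described below. Retinal genes, looked at because the label's extraction text speaks of retinas, summed to at most 0.529 FPKM over 7 genes. In bulk RNA, fewer cells of a type and less RNA per cell cannot be told apart, which applies to each level below.

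Of the 10 genes, 6 rose in dKO MLECs: Tmsb4x, Tmsb10, Coro1a, Actb, Arpc1b and Cfl1. For Actg1, Pfn1, Tpm1 and Tpm4 the test was not passed, and 0 of the 10 fell. The test was limma on log2(FPKM + 1) over all 12467 genes with Benjamini-Hochberg adjustment, and a call means an adjusted p under 0.05. In the same fit 53.1% of all tested genes were called in either direction, 20.4% higher and 32.6% lower. The median log2 fold change of the 10 genes was 0.31 and that of all tested genes was -0.10. A further limit of 1.5 on the absolute log2 fold change is given in the paper's text and methods. With it, 0 of the 10 genes were called, beside 1.98% of all tested genes. A supplementary figure legend of the paper gives 1.5-fold instead. The folds of Coro1a, Tmsb4x and Tmsb10 were 2.02, 1.94 and 1.78, and Actb followed at 1.4. The authors' calls came from DESeq2, so counts under either limit are not like for like with theirs. In 3 genes, Tmsb4x, Tmsb10 and Coro1a, all dKO libraries lay above all CTR libraries, which was the case for 11.3% of all tested genes. Of all called genes 38.5% were higher in dKO, and with median-of-ratios scaling of the libraries 50.9%, while 6 of the 10 genes were called higher under that scaling too.

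**Figure D1:**
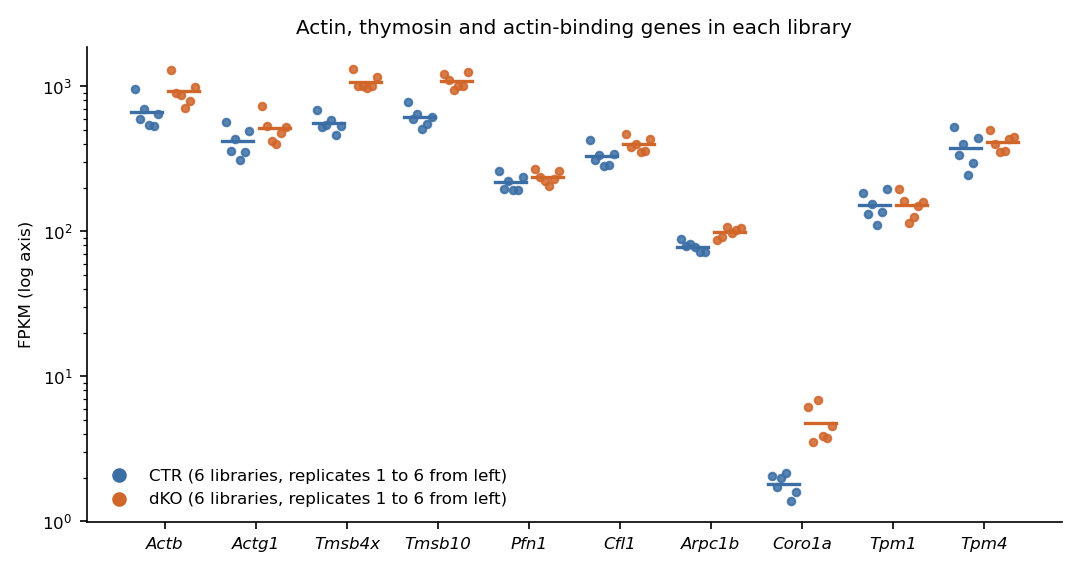
FPKM of the 10 genes in each library on a log axis, with CTR in blue and dKO in orange. Each point is 1 library, replicates 1 to 6 stand from left to right, and bars mark the group means. The groups are apart in Tmsb4x, Tmsb10 and Coro1a and overlap in the other 7 genes, and replicate 1 is the highest CTR point in 8 of the 10 genes and the highest dKO point in 7.

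A RefSeq promoter window was matched for 9 of the 10 genes, and Actb is named only. Each window was read over the 250 bases before the annotated start on build GRCm38.p6. They were searched for the GC box, the element that Sp1 and Sp3 bind (GGGCGG on one strand, CCGCCC on the other, overlapping matches counted separately), and for the CArG box, the element of serum response factor, which controls many actin genes. Tmsb10 and Coro1a have more than 1 window, so the 9 genes gave 12 windows. A GC box was found in 10 of these 12 windows and in 32.7% of 32851 windows of all genes. The latter include genes not expressed in these libraries, and the share among expressed genes was not computed. Counted by gene, 8 of the 9 had a box in at least 1 window, and Cfl1 had none in these 250 bases. With the 50 bases after the start included, all 12 windows and all 9 genes had a box, Cfl1 with 2. This was the case for 35.7% of the windows of all genes. A CArG box was found in 1 gene, Actg1, and in 1.47% of the windows of all genes. A match is a description of the letters and not of binding. The windows of Actg1 (chr11:120348496-120348745, minus strand), Tmsb4x (chrX:167209219-167209468, minus strand), Arpc1b (chr5:145114006-145114255, plus strand) and Pfn1 (chr11:70654651-70654900, minus strand) are shown 5′ to 3′ as examples with few and with many boxes, from genes that rose and genes that were not called. Capitals mark GC boxes and, in Actg1, also the CArG box, which is the run CCATATATGG.
Actg1: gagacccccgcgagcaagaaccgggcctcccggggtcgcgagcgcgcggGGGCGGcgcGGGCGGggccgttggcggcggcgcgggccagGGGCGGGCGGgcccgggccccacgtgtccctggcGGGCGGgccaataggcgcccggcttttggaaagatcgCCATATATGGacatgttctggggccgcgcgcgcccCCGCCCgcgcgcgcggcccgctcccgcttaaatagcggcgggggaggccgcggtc
Tmsb4x: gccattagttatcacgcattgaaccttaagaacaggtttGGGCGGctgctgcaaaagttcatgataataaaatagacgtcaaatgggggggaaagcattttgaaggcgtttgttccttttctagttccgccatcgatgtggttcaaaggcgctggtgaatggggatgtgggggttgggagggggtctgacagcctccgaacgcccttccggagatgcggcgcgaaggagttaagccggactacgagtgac
Arpc1b: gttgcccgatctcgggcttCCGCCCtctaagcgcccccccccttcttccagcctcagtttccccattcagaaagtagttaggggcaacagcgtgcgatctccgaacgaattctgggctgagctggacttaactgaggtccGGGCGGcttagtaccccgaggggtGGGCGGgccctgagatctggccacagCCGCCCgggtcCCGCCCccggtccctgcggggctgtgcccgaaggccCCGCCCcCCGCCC
Pfn1: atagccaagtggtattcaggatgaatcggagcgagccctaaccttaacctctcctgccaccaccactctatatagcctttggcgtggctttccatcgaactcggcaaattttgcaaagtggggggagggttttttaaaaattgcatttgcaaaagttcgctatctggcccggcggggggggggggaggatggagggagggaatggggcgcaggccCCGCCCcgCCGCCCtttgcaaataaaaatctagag
Arpc1b, which rose, had 7 GC boxes and Actg1, which was not called, had 6. Tmsb4x, which rose most in FPKM together with Tmsb10, had 1, and Pfn1, which was not called, had 2 close to the start. Tpm4 had 5 and Tpm1 had 1, and neither was called. Boxes were thus present in windows of called and uncalled genes alike.

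Actb, the β-actin gene, was measured at 531 to 958 FPKM in CTR libraries with a median of 619.8, and at 706 to 1308 FPKM in dKO libraries with a median of 884. The groups overlapped: 2 of 6 dKO libraries lay above the highest CTR library, and all 6 lay above the CTR median. Replicate 1 was the highest in each group, at 958.1 FPKM in CTR and 1308 FPKM in dKO. The mean rose from 662 ± 158 (SD, n = 6) to 927 ± 210 FPKM, a log2 fold change of 0.49 with a standard error of 0.16 and a limma adjusted p of 0.0241. The 95% interval ran from 0.13 to 0.84 on the log2 scale. The call was lost without CTR replicate 5 (log2 fold change 0.43, limma adjusted p 0.055), with no filter on low values (0.49, adjusted p 0.0705) and with quantile normalization (0.25, adjusted p 0.218). Actb lies on chromosome 5 from 142888870 to 142892509 of mm39 on the minus strand, overlaps no exon of another gene in the GENCODE annotation, and had no near-identical copy in the table. Between 24346 and 54401 fragments of a library lay on it, so that counting error was small beside the spread between libraries.

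Actg1, the γ-actin gene, had 313 to 568 FPKM in CTR (median 394) and 403 to 727 FPKM in dKO libraries (median 501). Only 1 dKO library lay above the highest CTR library, although all 6 lay above the CTR median. Its means were 419.7 ± 98.0 and 514 ± 116 FPKM, with a log2 fold change of 0.30, a 95% interval from -0.06 to 0.66 and a limma adjusted p of 0.150. A rise of the size seen in Actb is within this interval. Actg1 was called in 1 of 26 alternatives, the fit with replicate number as a block (limma adjusted p 0.0232). Of the fragments on Actg1 and its 3 near-identical copies, 4.48% lay on the copies. Genes on the same and on the opposite strand share 15.8% of the exon bases of Actg1.

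The muscle actins were compared per length on the FPKM scale. Acta2, the smooth muscle α-actin, had a higher mean level than Actb in CTR libraries, 773 ± 322 FPKM with a range of 409 to 1330, and a lower one in dKO libraries, 518 ± 150 FPKM with a range of 362 to 781. Its log2 fold change was -0.52 with a limma adjusted p of 0.102, so a difference between the groups was not shown. Acta1, of skeletal muscle, ranged from 0.116 to 9.60 FPKM in CTR and from 1.92 to 27.2 FPKM in dKO libraries and was not called. Actg2 of visceral smooth muscle was at 12.4 ± 5.78 and 9.57 ± 2.86 FPKM, and Actc1 of heart had a mean under 1 FPKM in both groups and was not tested. Of the smooth muscle and pericyte list, 2 of 8 tested genes rose (25.0%), Myh11 and Rgs5, and 0 fell. Of all tested genes 20.4% rose and 32.6% fell.

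The thymosins rose most among the abundant genes. Tmsb4x, which encodes thymosin β4, the main holder of single actin molecules in many cells, had 461 to 691 FPKM in CTR (median 537) and 973 to 1327 FPKM in dKO libraries (median 1011). No dKO library reached down to the CTR range. The mean rose from 557 ± 77.9 to 1080 ± 138 FPKM, with a log2 fold change of 0.96, a standard error of 0.11 and a limma adjusted p of 1.53e-05. Tmsb10, which encodes the related thymosin β10, had 509 to 778 FPKM in CTR (median 604) and 941 to 1253 FPKM in dKO libraries (median 1059), again with no overlap. Its mean rose from 615 ± 93.0 to 1090 ± 125 FPKM, with a log2 fold change of 0.83, a standard error of 0.11 and a limma adjusted p of 4.94e-05.

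Both thymosins passed the test in all 26 alternatives, with log2 fold changes of 0.82 to 1.05 for Tmsb4x and 0.65 to 0.92 for Tmsb10. By mean FPKM among all genes, Tmsb4x stood at place 41 in CTR and 17 in dKO libraries, and Tmsb10 at place 36 and 16. The macrophage markers rose in the same libraries, and they were highest in dKO replicate 3, with a summed level of 5330 FPKM. In that library Tmsb4x was at 1007 FPKM, just under the dKO median, and Tmsb10 at 940.5 FPKM, the lowest of the dKO libraries. Without dKO replicate 3 the log2 fold changes were 0.97 and 0.87. The part of other cell types in the rise was not tested.

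Pfn1, which encodes profilin-1, the factor that loads actin onto filament ends, had 194 to 262 FPKM in CTR and 206 to 267 FPKM in dKO libraries, and the groups overlapped over most of their range. Its means were 218 ± 28.6 and 237 ± 23.3 FPKM, with a log2 fold change of 0.12, a 95% interval from -0.08 to 0.33 and a limma adjusted p of 0.288. The interval leaves out a rise as large as that of either thymosin. Of the annotated exon bases of Pfn1, 45.4% are shared with genes on the opposite strand, mainly Rnf167. The strand setting of the counting is not known, so reads of both genes may be mixed. The gene length implied by the FPKM was 2405 bases against 4348 annotated ones, so whether the shared bases were counted is not known.

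Cfl1, which encodes cofilin-1, the main filament-cutting factor outside muscle, had 281 to 425 FPKM in CTR (median 325) and 352 to 469 FPKM in dKO libraries (median 393). All 6 dKO libraries lay above the CTR median and 2 above the highest CTR library, which was replicate 1. Its mean rose from 331 ± 53.0 to 400.3 ± 45.5 FPKM, with a log2 fold change of 0.28, a standard error of 0.11 and a limma adjusted p of 0.0423. This call is the least firm of the 6, since it was lost in 12 of 26 alternatives, among them the absence of any one of CTR replicates 2 to 6 or of dKO replicates 1, 2, 3 and 6, where the log2 fold change was 0.23 or more. The largest adjusted p was 0.167, under quantile normalization with a log2 fold change of 0.18. Snx32 on the opposite strand covers 32.9% of the exon bases of Cfl1.

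Arpc1b encodes a subunit of the Arp2/3 complex that is used most in blood cells, beside its relative Arpc1a. It had 71.8 to 88.6 FPKM in CTR (median 78.2) and 87.4 to 108 FPKM in dKO libraries (median 99.6). The groups touched at 1 library, dKO replicate 1, and the other 5 dKO libraries lay above all CTR libraries. The mean rose from 78.4 ± 6.32 to 98.5 ± 8.15 FPKM, with a log2 fold change of 0.33, a standard error of 0.07 and a limma adjusted p of 0.00233. The call held in all 26 alternatives, with adjusted p up to 0.017. Pdap1 on the opposite strand covers 17.4% of the exon bases of Arpc1b.

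Coro1a encodes coronin-1A, a coronin known chiefly from leukocytes, and was by far the least abundant of the 10 genes. It had 1.39 to 2.14 FPKM in CTR (median 1.85) and 3.50 to 6.87 FPKM in dKO libraries (median 4.22), with no overlap. These levels rest on 66 to 336 fragments of a library. The mean rose from 1.81 ± 0.290 to 4.79 ± 1.4 FPKM, with a log2 fold change of 1.02, a standard error of 0.14 and a limma adjusted p of 7.5e-05. The added 1 FPKM understates the change of a gene at this level, and with an added 0.01 the log2 fold change was 1.37, the largest of the 25 alternatives, all of which kept the call.

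Leukocyte genes rose in the same libraries as Coro1a. Of 12 general leukocyte and lymphocyte markers, 8 were tested and 8 rose, beside 20.4% of all tested genes. The summed level of the list was 70.6 to 107 FPKM in CTR and 143 to 311 FPKM in dKO libraries. The lymphocyte genes Cd3e and Cd3d were under 0.1 FPKM in all 12 libraries, and Ptprc, which encodes the leukocyte antigen CD45, rose from 1.25 to 2.67 FPKM. The dKO library with the most Coro1a, replicate 3 at 6.87 FPKM, was also the highest in the leukocyte and macrophage sums. Replicates 1, 6 and 4 followed in Coro1a, at 6.16, 4.56 and 3.89 FPKM, and in the leukocyte sum, at 199, 194 and 184 FPKM. Replicate 5 had more Coro1a than replicate 2, at 3.75 and 3.50 FPKM, but the lower leukocyte sum, at 143 and 177 FPKM. In the macrophage sum the order differed, with 3030 FPKM in replicate 1, 3490 in replicate 6 and 3150 in replicate 4. Among the CTR libraries, replicate 5 had the least Coro1a, 1.39 FPKM, with a leukocyte sum of 103 FPKM, near the highest CTR sum of 107 FPKM. Without dKO replicate 3 the log2 fold change of Coro1a was 0.92. The part of leukocytes in the rise was not tested.

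The tropomyosins showed no difference that passed the test. Tpm1, which encodes α-tropomyosin, had 111 to 195 FPKM in CTR and 114 to 195 FPKM in dKO libraries, almost the same range. Its means were 152 ± 32.3 and 151 ± 28.6 FPKM, and the 95% interval of the log2 fold change ran from -0.33 to 0.32, with a limma adjusted p of 0.979. Tpm4, a tropomyosin of non-muscle cells, had 244 to 529 FPKM in CTR and 352 to 501 FPKM in dKO libraries. Its means were 374 ± 104 and 416.5 ± 56.9 FPKM, with an interval from -0.17 to 0.55 around a log2 fold change of 0.19 and a limma adjusted p of 0.355. The lowest CTR library of both genes was replicate 4.

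**Figure D2:**
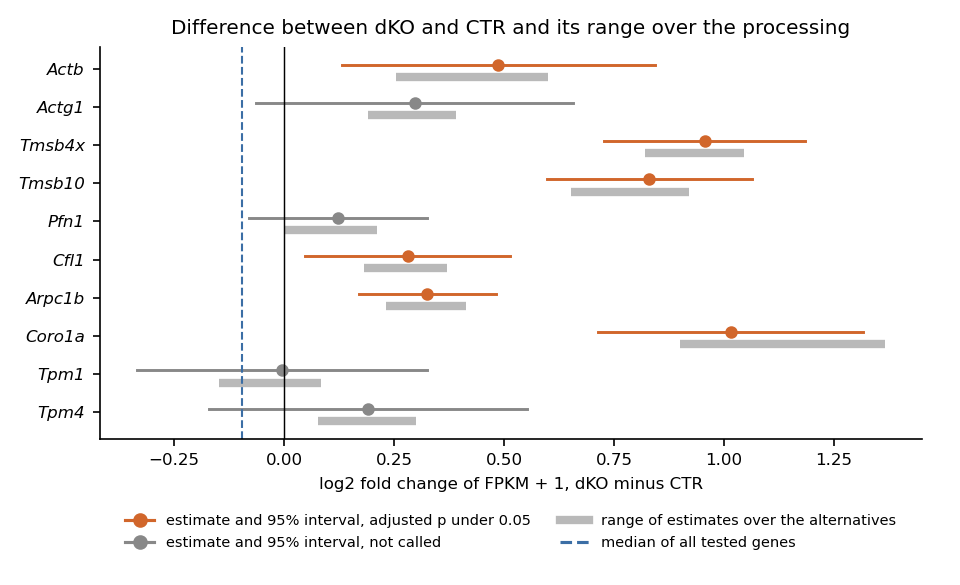
Log2 fold change of FPKM + 1, dKO minus CTR, for the 10 genes, with 95% intervals from limma in orange where the adjusted p was under 0.05 and in grey elsewhere. Grey bars show the range of the estimate over the alternative ways of processing. The dashed line is the median of all tested genes at -0.10, and the 3 genes at the right, Tmsb4x, Tmsb10 and Coro1a, keep all their estimates above 0.65.

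A ratio of 2 genes within a library does not depend on how the library was scaled. The 8 ratios of a gene to a close relative were compared by exact two-sided permutation tests, with p adjusted over the 8, and the smallest p this design allows is 0.00216. Cfl1 moved against its muscle-type relative Cfl2: the ratio was 6.33 to 9.54 in CTR and 12.1 to 14.4 in dKO libraries, a log2 difference of 0.75 (exact permutation p 0.00216, adjusted p 0.00432). Cfl2 itself fell from 41.6 to 30.02 FPKM, with a limma adjusted p of 0.00777. The 2 cofilin genes therefore stood further apart in every dKO library than in any CTR library.

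Arpc1b was 2.59 to 3.24 times Arpc1a in CTR and 3.37 to 3.95 times in dKO libraries, with no overlap and a log2 difference of 0.31 (exact permutation p 0.00216, adjusted p 0.00432). Arpc1a itself was at 26.7 and 27.0 FPKM, with a log2 fold change of 0.02 and a limma adjusted p of 0.849. Coro1a rose against both broadly expressed coronins. Its ratio to Coro1b was 0.0496 to 0.126 in CTR and 0.165 to 0.333 in dKO libraries, and its ratio to Coro1c 0.0622 to 0.102 and 0.115 to 0.225, each with an exact permutation p of 0.00216 and an adjusted p of 0.00432.

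Pfn1 fell against Pfn2, a relative known best from neurons, from 26.1 to 40.4 times in CTR to 15.8 to 28.0 times in dKO libraries, a log2 difference of -0.46 (exact permutation p 0.00866, adjusted p 0.0139). Pfn2 rose from 7.43 to 11.1 FPKM with a limma adjusted p of 0.0212. Actb was 1.30 to 1.74 times Actg1 in CTR and 1.65 to 2.05 times in dKO libraries, a log2 difference of 0.19 (exact permutation p 0.0238, adjusted p 0.0317), and 4 of 6 dKO libraries lay above all CTR libraries. The ratio of Tmsb4x to Tmsb10 was 0.836 to 1.16 in CTR and 0.919 to 1.09 in dKO libraries (log2 difference 0.13, exact permutation p 0.162, adjusted p 0.162), so unequal change of the thymosins was not shown. Without CTR replicate 4, which held the ratio of 1.16, the log2 difference was 0.20 and the exact permutation p 0.00433. For Tpm1 over Tpm4 the ratio was 0.348 to 0.465 in CTR and 0.324 to 0.407 in dKO libraries (log2 difference -0.20, exact permutation p 0.0563, adjusted p 0.0643).

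**Figure D3:**
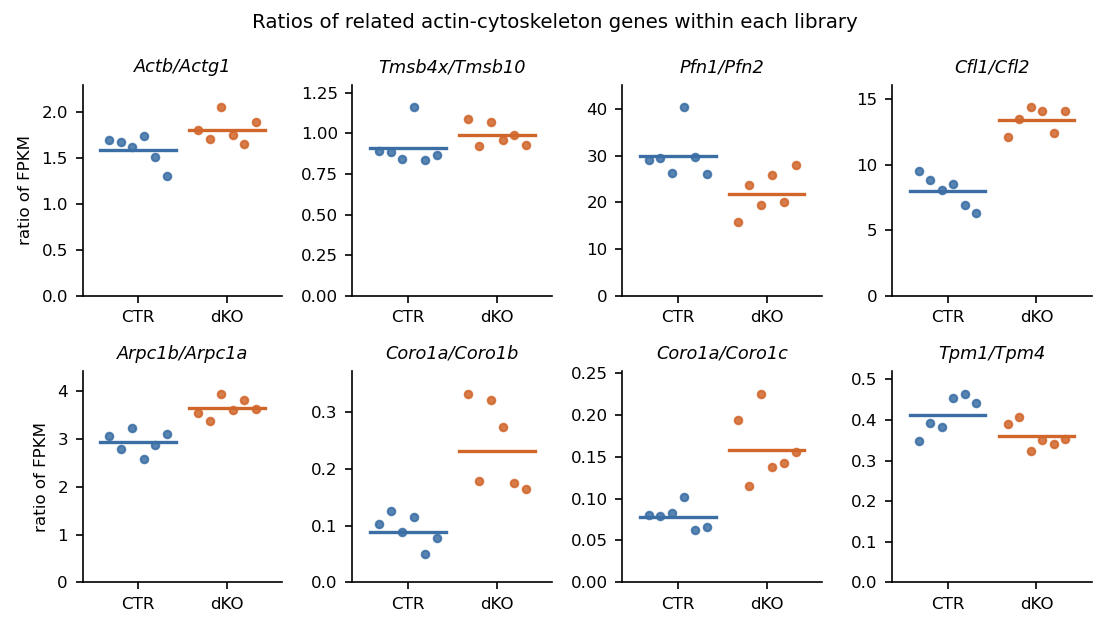
Ratio of FPKM of a gene to a close relative in each library, with CTR in blue, dKO in orange, replicates 1 to 6 from left to right, bars at the geometric means and each axis starting at 0. The groups are apart for Cfl1/Cfl2, Arpc1b/Arpc1a, Coro1a/Coro1b and Coro1a/Coro1c, and CTR replicate 4 stands above the other CTR libraries in Tmsb4x/Tmsb10 and Pfn1/Pfn2.

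As an internal standard, Actb differed between the groups and varied more within them than most genes. Its standard deviation of log2(FPKM + 1) was 0.39 over the 12 libraries and 0.31 within groups, where the medians of all tested genes were 0.244 and 0.175. Smaller within-group deviations were found in 83.6% of all tested genes. The added 1 FPKM shrinks the deviation of low genes and hardly that of Actb, so such comparisons favour low genes. Of 17 other genes in common use as standards, 12 had a smaller deviation over the 12 libraries than Actb and 15 a smaller one within groups. The highest library had 2.46 times the FPKM of the lowest.

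Of the 17 other standards, 6 rose, 4 fell and 7 were not called, and their median log2 fold change was 0.06. The 58.8% that were called stand beside 53.1% of all tested genes, of which 20.4% rose and 32.6% fell. B2m, the shared chain of class I antigen complexes, rose most, from 409 to 1610 FPKM with a log2 fold change of 1.97. Tfrc, the transferrin receptor, had the next largest deviation over the 12 libraries, 0.70, and a log2 fold change of 1.08. Gapdh, a glycolytic enzyme, is named in the study's methods as the housekeeping gene of their qPCR. The study's supplementary primer list, however, holds primers for human and mouse β-actin and none for GAPDH. Gapdh rose from 27.7 ± 6.18 to 48.0 ± 8.05 FPKM, with a log2 fold change of 0.78 and a limma adjusted p of 0.000557. That difference was larger than that of Actb. Of the fragments on Gapdh and its 71 near-identical copies in the table, 54.3% lay on the copies, so its FPKM covers only part of its reads. Iffo1 on the opposite strand covers 41.6% of the annotated exon bases of Gapdh, so reads of both genes may be mixed. The gene length implied by the FPKM was 4133 bases against 7160 annotated ones, so whether the shared bases were counted is not known.

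The smallest deviations over the 12 libraries were those of Polr2a, a subunit of RNA polymerase II, and Ywhaz, a 14-3-3 protein. Polr2a was at 29.6 ± 1.01 and 30.4 ± 2.54 FPKM, with a deviation of 0.09 and a log2 fold change of 0.04. Ywhaz was at 91.5 ± 5.34 and 89.6 ± 7.43 FPKM, with a deviation of 0.09 and a log2 fold change of -0.03. Eef1a1, the translation elongation factor, had the largest fall of the 4 that fell, from 3828 to 2612 FPKM with a log2 fold change of -0.55 (limma adjusted p 6.89e-05).

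**Figure D4:**
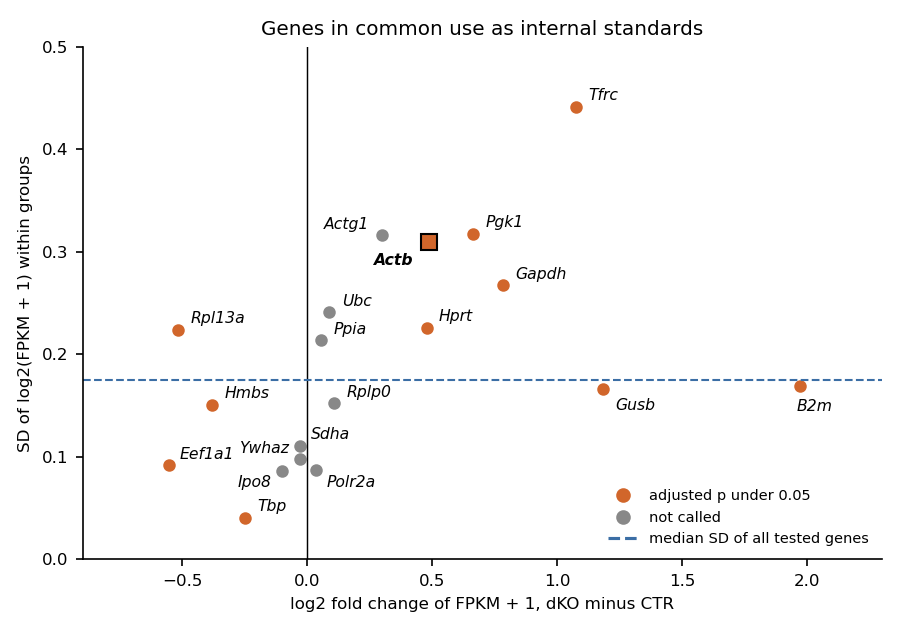
Log2 fold change of FPKM + 1, dKO minus CTR, against the standard deviation of log2(FPKM + 1) within groups, for Actb (square), Actg1 and 17 other genes in common use as standards. Orange marks a limma adjusted p under 0.05, and the dashed line is the median deviation of all tested genes at 0.175. Actb lies right of 0 and above the line, while Polr2a, Ywhaz, Sdha and Ipo8 lie near 0 and below it.

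The choice of standard moved the values of other genes. Differences in this comparison are of log2 FPKM with no value added, so that they can be set beside log2 ratios, while limma adjusted p are from log2(FPKM + 1). Without a standard, Prkaa1, which encodes the AMPKα1 subunit, was at 19.9 ± 1.64 FPKM in CTR and 18.3 ± 1.39 in dKO libraries, with a log2 difference of -0.12 and a limma adjusted p of 0.177. Divided by Actb within each library, its log2 difference was -0.61 (exact permutation p 0.00433, adjusted over 10 ratios 0.00866), and divided by Gapdh -0.92 (exact permutation p 0.00216, adjusted p 0.0072). Prkaa2, which encodes AMPKα2, rose from 1.5 ± 0.262 to 2.19 ± 0.604 FPKM, a log2 difference of 0.52 with a limma adjusted p of 0.0319. Divided by Actb its log2 difference was 0.03 (exact permutation p 0.883, adjusted p 0.883), and divided by Gapdh -0.28 (exact permutation p 0.286, adjusted p 0.357).

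Sp3 shifted in the same manner, from a log2 difference of -0.15 without a standard to a log2 difference of -0.64 over Actb (exact permutation p 0.0173, adjusted p 0.0288) and -0.95 over Gapdh (exact permutation p 0.00433, adjusted p 0.00866). Cav1, which encodes caveolin-1, rose from 72.3 ± 9.97 to 122 ± 18.2 FPKM with a log2 difference of 0.76 and a limma adjusted p of 0.000164. Over Actb its difference was 0.27 (exact permutation p 0.203, adjusted p 0.290) and over Gapdh -0.05 (exact permutation p 0.820, adjusted p 0.883). Sp1 was lower in each case, with log2 differences of -1.01 without a standard, -1.498 over Actb and -1.81 over Gapdh, with an exact permutation p of 0.00216 for both ratios (adjusted p 0.0072).

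Within groups, the 10 genes did not vary as 1 unit. After the group means were taken off, Cfl1 followed Actb most closely of the other 9, with a Pearson r of 0.96 over 12 libraries, ahead of Pfn1 and Actg1 at 0.91 each. The thymosins were at 0.86 each, Tpm4 at 0.81 and Tpm1 at 0.74, while Coro1a was at 0.47 and Arpc1b at 0.16. Among all tested genes other than these, Tpm3 was closest to Actb with an r of 0.99, followed by Pea15a at 0.99, Wdr1 at 0.98, Prpf31 at 0.98 and Ttll12 at 0.98. Tpm3 encodes a tropomyosin and Wdr1 a helper of cofilin. By r with Actb among all tested genes, Cfl1 stood at place 17, Pfn1 at 146, Actg1 at 150, Tmsb10 at 340 and Tmsb4x at 360. Tpm4 stood at place 708, Tpm1 at 1270, Coro1a at 3310 and Arpc1b at 5526. Genes outside the 10 thus followed Actb at least as closely as each of them did. These correlations are a description. They rest on 12 libraries that also share their scaling, and Actb was highest in replicate 1 of each group.

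Of 98 other genes of the actin cytoskeleton, listed by role, 91 were tested, of which 31 rose, 16 fell and 44 were not called, with a median log2 fold change of 0.13 beside -0.10 over all tested genes. The share called was 51.6%, near the 53.1% of all tested genes, where 20.4% rose and 32.6% fell. The single lists hold few genes, and their counts are to be read against these shares. In the list for actin monomer binding and turnover, 6 of 13 tested genes rose and 1, Cfl2, fell. Twf2, a twinfilin that binds single actin molecules, rose most, with a log2 fold change of 0.53. The others that rose were Dstn, Pfn2, Wdr1, Cap1 and Twf1. The kinases that switch cofilin off, Limk1 and Limk2, and the phosphatases that switch it on, Ssh1, Ssh2 and Ssh3, were not called.

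Of the Arp2/3 complex and its activators, 7 of 19 tested genes rose and 5 fell, 63.2% against 53.1% of all tested genes. The complex subunits Arpc3, Arpc5, Arpc4, Arpc2 and Actr2 rose, with log2 fold changes of 0.69, 0.48, 0.40, 0.25 and 0.19. Arpc5l, the relative of Arpc5, fell from 17.8 to 10.8 FPKM, with a log2 fold change of -0.66 and a limma adjusted p of 0.000225. Actr3 and Arpc1a were not called. Among the activators, Was and Hcls1, both known from blood cells, rose with log2 fold changes of 1.05 and 0.94, while Wasf1, Wasf3, Wasl and Abi1 fell. Of 6 other coronins 2 rose, Coro2a and Coro1c, and 1 fell, Coro6 with a log2 fold change of -0.79.

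Of 6 tested capping and severing genes, 4 rose, beside 20.4% of all tested genes, namely Capg with a log2 fold change of 0.81 and the capping protein genes Capzb, Capza1 and Capza2, and 0 fell. Of the tropomyosins and tropomodulins 3 of 5 rose, Tmod2 with 0.43, Tpm3 with 0.28 and Tmod3 with 0.22, and 0 fell. Among crosslinkers and membrane linkers 3 of 11 rose, with Lcp1, the leukocyte plastin, at 0.89 and Pls3 at 0.60, and Rdx (radixin) fell with -0.39. In the formin and Ena/VASP list 2 of 12 rose, with Fmnl2 at 0.52, and 4 fell, Diaph3, Vasp, Enah and Evl, with log2 fold changes from -0.62 to -0.35.

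Of 5 genes of non-muscle myosin II, 3 were called, beside 53.1% of all tested genes: Myl6 and Myl12b rose, with log2 fold changes of 0.28 and 0.26, and Myh10 fell from 38.4 to 22.7 FPKM, with a log2 fold change of -0.73 and a limma adjusted p of 3.51e-05. Myh9 was at 163.7 and 163.2 FPKM and was not called. Of 11 tested genes of the serum response factor pathway, 5 were called (45.5%), of which 2 rose, the coactivators Mrtfa and Mrtfb with 0.43 and 0.32. The 3 that fell were Zyx, from 96.7 to 52.6 FPKM with a log2 fold change of -0.86, Myl9 with -0.61, and Tgfb1i1 with -0.49. Srf itself was at 13.8 and 11.9 FPKM and was not called. Endothelial, macrophage and leukocyte markers and part of the fibroblast markers moved in the same libraries as all of these genes, and their part was not tested.

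**Figure D5:**
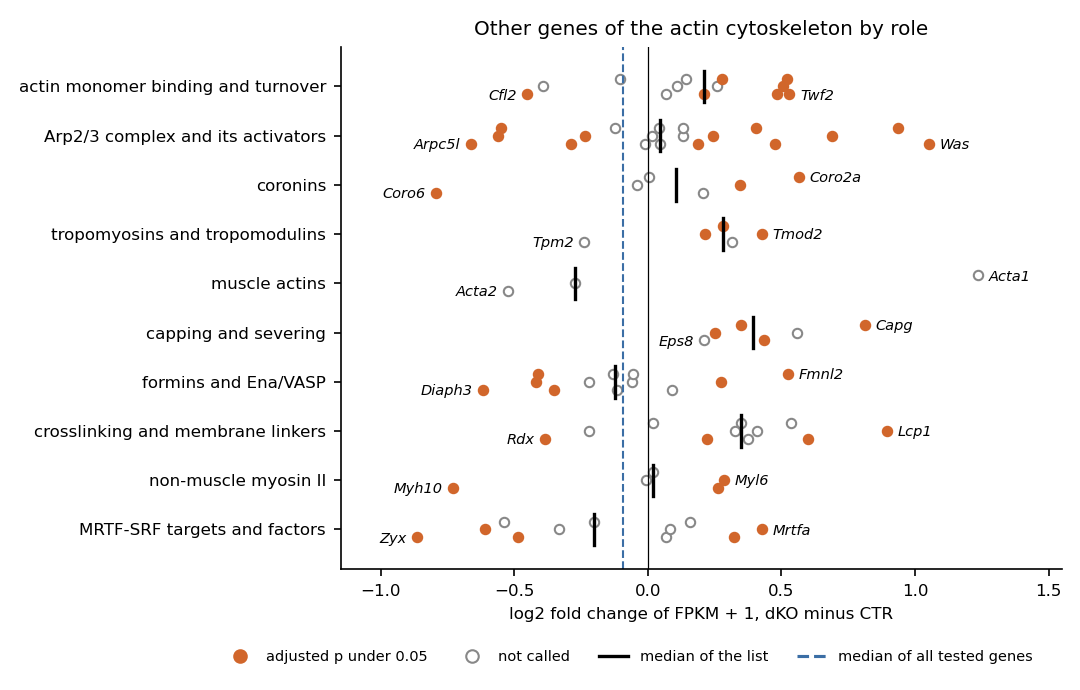
Log2 fold change of FPKM + 1, dKO minus CTR, for the 91 tested genes of 10 role lists. Each point is a gene, filled in orange where the limma adjusted p was under 0.05, the black bar is the median of the list, and the dashed line is the median of all tested genes. Capping and severing genes and tropomodulins hold filled points only to the right of 0, and the formin and the serum response factor lists hold most of theirs to the left.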

How the data were processed

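The authors trimmed reads with Trimmomatic, mapped them to mm39 with STAR, extracted uniquely aligned reads with sambamba, mapped these again, and deposited FPKM values of 12 libraries. The submitters' processing notes name Bowtie2 2.2.3, HISAT2 2.1.0, TopHat2 and DESeq2, and the label's extraction text speaks of retinas and a TruSeq kit, whereas the methods describe cultured MLECs and a NEBNext kit. The counting program, annotation and strand setting are not given in the sources used here, so reads of overlapping genes on opposite strands may be mixed.

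The 10 genes and all lists were chosen with earlier results of these data known. Genes at 1 FPKM or more in 6 or more libraries were tested with limma 3.58.1 (lmFit, eBayes with trend) in R 4.3.3 on log2(FPKM + 1), with no covariate, and Benjamini-Hochberg adjustment ran over 12467 genes. Fold changes are on that scale and understate low genes. Ratios were compared by exact permutation tests (SciPy 1.17.1). Fragments were recovered from the FPKM as whole numbers (tolerance 0.02) for 28689 genes and used for depth and 1 alternative. The gene lengths recovered with them were shorter than the annotated ones for Actg1, Pfn1, Cfl1, Arpc1b and Gapdh. Shares of exon bases that overlap other genes refer to the annotation and not to the lengths used in counting. No library repeats another, since chi-square divided by its degrees of freedom was 11.3 or more for each pair within CTR or dKO. Near-identical copies were sought with BLAST 2.17.0 (at least 95% identity over at least 150 bases and 50% of the copy). Symbols came from GENCODE M39 by Ensembl identifier (96.6% matched). On data simulated from these libraries, 96 of 97 tested genes with a planted absolute log2 fold change of 1, 53 of 98 with 0.5 and 7 of 12389 unchanged genes were called. The simulation planted changes in 200 genes, drew each gene independently and used the same dispersion for every gene. The real libraries share variation across genes, so these rates need not hold for them.

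Named are the 10 genes, the largest rise and fall of each role list, the relatives in ratios, Gapdh and the standards with the 2 smallest and 2 largest deviations, 5 genes scaled to a standard, the 5 most like Actb, and markers. Other genes of the lists were named after their values were seen. Alternatives were pseudocounts of 0.1 and 0.01, no filter, a filter of 5 FPKM, TPM, median-of-ratios, upper-quartile and quantile scaling, scaling without the 100 most abundant genes, robust eBayes, array weights, the replicate block, limma-voom on fragments, copies summed, and leaving out each library.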

Additional observations from a re-analysis of the deposited data

Results flagged for a closer look

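Among 36 groups of 6 values, each of the 10 genes and 8 ratios in CTR and in dKO libraries, a library stood far from the others of its group in 2, where about 1.8 would be met by chance, since the rule marks about 1 in 20 groups. The Tmsb4x to Tmsb10 ratio was 1.16 in CTR replicate 4 and 0.836 to 0.888 in the other CTR libraries. The Pfn1 to Pfn2 ratio was 40.4 in CTR replicate 4 and 26.1 to 29.7 in the others.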

How the results depend on the processing

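The count of called genes among the 10 was 4 with no filter and with quantile normalization, 5 to 7 in the other settings that kept all libraries, and 4 to 6 with a library left out, all of them higher in dKO. Tmsb4x, Tmsb10, Arpc1b and Coro1a were called in every alternative run. Cfl1 lost its call in 12 and Actb in 3 of 26. With at least 5 FPKM in 6 libraries, 4222 of 7891 genes were called against 6614 of 12467, fewer genes being tested, and Coro1a was not among them. Tpm1, never called, changed sign to 0.084 with median-of-ratios and 0.021 with upper-quartile scaling, and ranged from -0.091 to 0.071 with a library left out.

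Pairing of the libraries by replicate number was not shown for all 6 numbers. The correlation of deviations between libraries of the same number was over 0.1 in 3 of 6 numbers (-0.108 to 0.565). It was 0.436 for number 1 and 0.565 for number 4, where the CTR library correlated best with its own number. The CTR libraries of the other numbers did not. With a replicate block, 7 of the 10 genes and 6955 of all genes were called, Actg1 being added with an adjusted p of 0.0232. The limma adjusted p under this block was lower than without it for Actb (0.000721) and Cfl1 (0.0042). It was higher for Arpc1b (0.0102), Tmsb4x, Tmsb10 and Coro1a, which stayed called. By sign flips of the 6 pairs, the smallest possible p is 0.0312, and the Pfn1 to Pfn2 difference of -0.46 had an exact p of 0.0625. With a library left out, exact permutation p went under 0.05 for Tmsb4x to Tmsb10 without CTR replicate 4 (log2 differences of 0.098 to 0.197 over the libraries left out) and for Tpm1 to Tpm4 without CTR replicate 1 or dKO replicate 2 (-0.245 to -0.161). The causes were not tested. The rank of Actb by deviation, 13 of 18 with the smallest first, stayed between 11 and 13. Read depth limits Coro1a most, at 66 to 336 fragments.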
